A study of Mus musculus with 6 samples.

Results

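The collagen chain genes of mouse bone were examined in 6 femur RNA libraries. Members were all genes whose mouse symbol is Col, a number, the letter a and a number, which gave 44 of the 22824 genes listed for each library. They comprised 11 fibrillar chains, 9 FACIT chains (fibril-associated collagens with interrupted triple helices), 3 network chains, 8 basement membrane chains counting the multiplexins Col15a1 and Col18a1, and 6 beaded filament chains. The remaining 7 were 1 anchoring fibril chain, 4 transmembrane chains and 2 others. The OE group was 3 libraries from C57BL/6 mice of genotype 9.6kb DMP1-Cre; R26-Wnt7b, labelled homozygotes without saying for which allele, in which Cre expressed from Dmp1 regulatory sequence, active mainly in osteocytes and mature osteoblasts, switches on a Wnt7b allele at the R26 locus. The Ctrl group was 3 libraries from R26-Wnt7b littermates without Cre, so both groups carry the R26-Wnt7b allele. Femurs are labelled as freed of cartilage and marrow, and the labels used here give no age, sex or pooling of animals. Values are FPKM, fragment counts scaled to transcript length and to the mapped fragments of the library, so levels of different chains can be set side by side per length.

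Collagens are built from chains that wind into a triple helix, in which glycine recurs at a fixed spacing. Fibrillar types carry tension in bone, cartilage and skin, and type I, made from the Col1a1 and Col1a2 products, is the main protein of bone matrix. FACIT chains decorate fibrils, type IV chains form the sheet of basement membranes, type VI forms beaded filaments around cells, and type X is laid down by hypertrophic chondrocytes. Osteoblasts secrete the bone collagens, so members were set against non-collagen markers of the cells that a femur can hold.

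The libraries were compared before the chains. Wnt7b itself stood at 2.49, 0.661 and 0.295 FPKM in OE 1, 2 and 3, against 0.00833 FPKM in Ctrl 2, a listed 0 in Ctrl 3 and 0.909 FPKM in the library labelled Ctrl 1. For the gene that defines the groups, the library labelled Ctrl 1 sat inside the range of OE (exact two-sided permutation p = 0.3 for OE against Ctrl, where 3 against 3 libraries can give no p below 0.1). From Wnt7b alone, the label of that library is in doubt, and comparisons are given with and without it. Wnt7b was lowest in Ctrl 2 and Ctrl 3, where the osteoblast markers given below were also lowest. Whether the label or the tissue make-up accounts for this was not tested. The steps between low FPKM values put relative depth between 1 and 1.18, with absolute depth unknown, and 11627 to 12258 genes reached 1 FPKM in a library. The labels do not say that libraries came from different animals, so p-values measure only the spread between these samples, which may be technical. Markers of neutrophils, 7 of 7 present, summed to 55305 to 154775 FPKM in OE and 95135 to 131028 FPKM in Ctrl, and OE 3 was highest in 7 of 7 erythroid and 5 of 5 B-cell markers. All 9 chondrocyte markers (Acan, Sox9, Comp, Matn1, Matn3, Hapln1, Cnmd, Snorc and Chad) were above 0 in each library, although femurs are labelled free of cartilage. In Ctrl 2 and Ctrl 3 most were under 1 FPKM, such as Sox9 at 0.0336 and 0.104 and Matn1 at 0.0294 and 0.0380. The highest there were Chad, at 5.98 and 6.69 FPKM, and Comp, at 5.23 and 5.51 FPKM. Osteoblast markers, which mark the labelled tissue, were present in 9 of 9, at a sum of 6750, 6417 and 4171 FPKM in OE, against 5842 in the library labelled Ctrl 1, with 459 and 374 FPKM in Ctrl 2 and Ctrl 3. Skeletal muscle markers, 7 of 8 with a row, summed to 1674, 1347 and 1735 FPKM in OE, against 1523, 229 and 329 FPKM in Ctrl.

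The promoters of 4 chains named in the results are shown, and no difference was tested against their sequence. The Col4a1 and Col4a2 genes lie head to head and kept a nearly fixed ratio. Col10a1 was the member with the largest difference, and Col20a1 was a chain with similar values in all libraries. These 4 chains were chosen after the values were seen. Each stretch is 300 bases, from 250 before to 50 after the RefSeq start site, on GRCm38.p6, 5′ to 3′ on the gene's strand. RefSeq promoters matched 35 of the 44 members, with 38 windows. In the first pair, capitals mark the 78 bases that the windows share (chr8:11312777-11312854), and in Col10a1 they mark the letters TATAAA.
Col4a1, chr8:11312777-11313076, minus strand: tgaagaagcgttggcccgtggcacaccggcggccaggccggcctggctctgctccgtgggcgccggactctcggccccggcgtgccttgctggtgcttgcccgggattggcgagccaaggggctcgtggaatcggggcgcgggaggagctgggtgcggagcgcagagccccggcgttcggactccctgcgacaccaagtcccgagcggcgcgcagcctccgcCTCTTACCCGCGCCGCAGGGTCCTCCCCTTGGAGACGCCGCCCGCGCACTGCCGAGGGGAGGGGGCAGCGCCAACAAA
Col4a2, chr8:11312555-11312854, plus strand: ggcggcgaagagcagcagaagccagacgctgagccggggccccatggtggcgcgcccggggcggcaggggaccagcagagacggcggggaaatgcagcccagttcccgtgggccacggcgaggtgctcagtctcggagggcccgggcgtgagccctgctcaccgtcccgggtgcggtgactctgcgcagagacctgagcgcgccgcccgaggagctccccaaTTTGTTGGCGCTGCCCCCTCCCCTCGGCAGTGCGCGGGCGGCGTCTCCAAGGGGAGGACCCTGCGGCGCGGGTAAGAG
Col10a1, chr10:34389731-34390030, plus strand: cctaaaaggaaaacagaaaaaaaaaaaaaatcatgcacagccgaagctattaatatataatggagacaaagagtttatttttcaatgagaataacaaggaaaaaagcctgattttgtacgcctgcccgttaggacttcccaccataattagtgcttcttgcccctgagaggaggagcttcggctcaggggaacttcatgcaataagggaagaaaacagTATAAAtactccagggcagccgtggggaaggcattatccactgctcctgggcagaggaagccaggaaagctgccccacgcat
Col20a1, chr2:180986285-180986584, plus strand: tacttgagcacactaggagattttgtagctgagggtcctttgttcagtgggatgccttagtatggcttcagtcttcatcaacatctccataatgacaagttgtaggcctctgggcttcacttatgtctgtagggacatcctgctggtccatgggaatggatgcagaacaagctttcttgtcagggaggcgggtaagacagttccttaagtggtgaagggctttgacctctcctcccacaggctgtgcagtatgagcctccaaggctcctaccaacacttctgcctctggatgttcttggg
The windows differ in base composition, with 37 CpG and 74.0% GC in Col4a1, 33 CpG and 73.7% GC in Col4a2, 6 CpG and 44.3% GC in Col10a1, and 1 CpG in Col20a1. The TATA box letters TATAAA, searched on both strands, begin 32 bases before the Col10a1 start site. They occurred in 13.2% of the 38 collagen windows and in 13.6% of all 32851 windows of that length. The GC box letters GGGCGG were present in 60.5% of collagen windows against 35.7% of all windows, the CCAAT box letters CCAAT in 34.2% against 37.4%, and the RUNX core letters TGTGGT in 7.89% against 16.8%. The 4 motifs were picked after the values were seen, none contains another, and a match describes letters only.

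Across the family, OE libraries and the library labelled Ctrl 1 held more collagen RNA than Ctrl 2 and Ctrl 3. Of the 44 members, 30 reached 1 FPKM in at least 3 libraries and entered the test. Col1a1 and Col1a2 are among them, but their listed zeros mean that they are given by library only, which leaves 28. Without these 2 genes, summed collagen FPKM was 1729, 1330.3 and 928 in OE 1, 2 and 3, against 1249 in the library labelled Ctrl 1, with 135 and 151 for Ctrl 2 and Ctrl 3. That sum was 0.281%, 0.171% and 0.156% of all FPKM in OE, against 0.170%, 0.0177% and 0.0244% in Ctrl. The groups overlapped on this measure because the library labelled Ctrl 1 lay between OE 1 and OE 3.

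**Figure D1:**
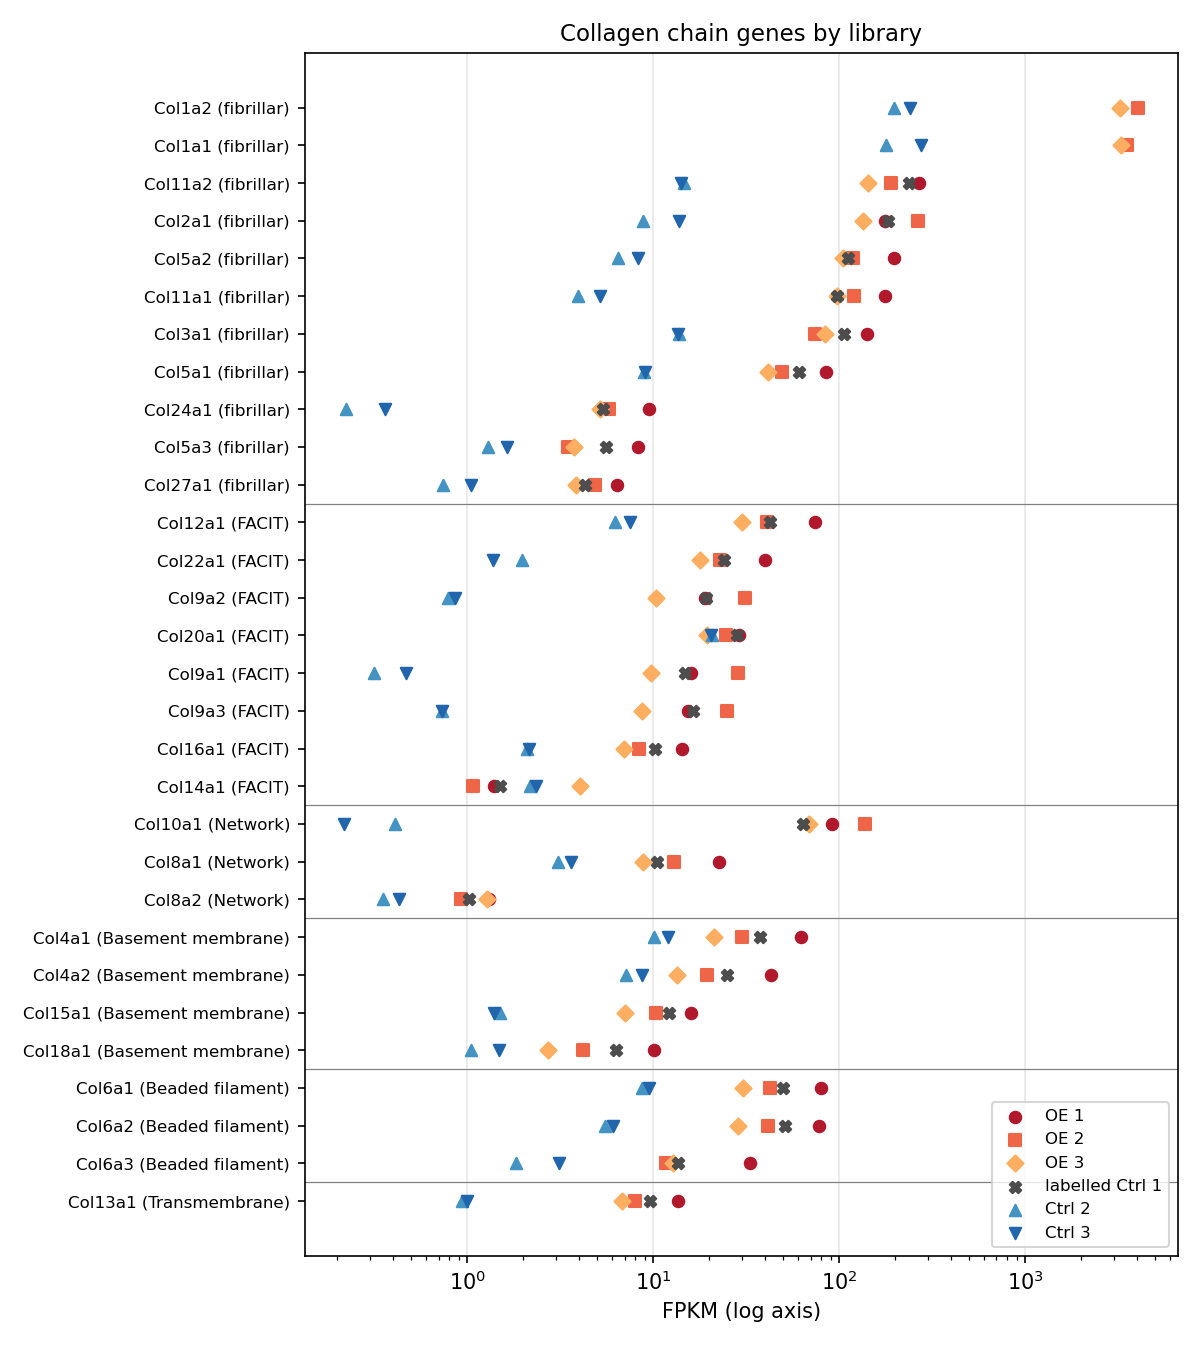
FPKM of the 30 tested collagen chain genes (log axis), 1 point for each library, ordered by class and then by highest value. Col1a1 and Col1a2 lack points for OE 1 and the library labelled Ctrl 1, where they are listed at 0. In 26 of the other 28 rows the 3 OE points lie to the right of Ctrl 2 and Ctrl 3, and in 27 the library labelled Ctrl 1 is no lower than the lowest OE point.

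With all 6 libraries, no chain passed limma at an adjusted p of 0.05, among 12177 genes of which 0% were called. The smallest adjusted p of any member was 0.554, the same as over all genes. The difference OE minus Ctrl in log2(FPKM + 1) was positive for 27 of the 28 chains, where 43.7% of all genes tested were positive, and its median was 1.67, against -0.04 over all genes. At an unadjusted p under 0.05, limma gave 11 chains higher and 0 lower in OE, against 4.12% of all genes higher and 4.08% lower. That count of higher chains was 1 without OE 1 (1.26% of all genes), 1 without OE 2 (3.85%) and 10 without OE 3 (2.97%). It was 0 without Ctrl 2 (0.624% of all genes) and 0 without Ctrl 3 (1.07%). The lowest OE value exceeded the highest Ctrl value in 1 of the 28, Col10a1, and in 4.59% of all genes tested, and the reverse held in 0 of the 28 and in 8.97% of all genes. In 27 of the 28 chains the library labelled Ctrl 1 was no lower than the lowest of OE, against 78.8% of all genes tested.

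Without the library labelled Ctrl 1, 21 of the 28 chains were higher and 0 lower in OE at an adjusted p of 0.05 by limma, where 4.25% of the 12177 genes were called higher and 0.649% lower. At an unadjusted p under 0.05 limma gave 26 higher and 0 lower, against 11.6% and 5.36% of all genes. Of these 28 chains 7 were under 1 FPKM in Ctrl 2 and in Ctrl 3 and so passed the filter through the higher libraries alone, and 6 of the 7 were called (Col10a1, Col13a1, Col24a1, Col9a1, Col9a2 and Col9a3), against 15 of the other 21. With no filter, an alternative added after the data were seen that tests 19021 genes, 12 chains were called higher and 0 lower. The shares over all genes were 0.941% and 0.279%. All 12 had been called with the filter, and 5 of them were among the 7 chains under 1 FPKM in Ctrl 2 and in Ctrl 3. The 9 chains that lost the call were Col12a1, Col15a1, Col16a1, Col27a1, Col6a1, Col6a2, Col6a3, Col8a1 and Col9a3. The median difference with the filter was 2.46, against -0.06 over all genes tested. The 3 OE libraries lay above Ctrl 2 and Ctrl 3 in 26 of the 28 chains, against 18.3% of all genes. With OE 3 also left out, 25 chains were called higher and 0 lower, where 7.92% and 3.48% of all genes were, and at an unadjusted p limma gave 26 higher and 1 lower, against 13.8% and 9.4%. OE 3 had the lowest summed collagen FPKM of OE, and the library labelled Ctrl 1 the highest of Ctrl. Leaving out the library labelled Ctrl 1, alone or with OE 3, therefore favours a larger difference. Neither comparison is separate support, here or where it is used below. With all 6 libraries weighted by their own scatter (array weights), 25 were called higher and 0 lower, against 8.18% and 3.27% of all genes. The weights were lowest for the library labelled Ctrl 1 (0.414) and OE 3 (0.421) and highest for Ctrl 2 (5.82). This fit is therefore no separate support either. In bulk femurs, fewer cells of a type and less RNA per cell cannot be told apart, and several marker lists were low in the same libraries. Besides osteoblast, chondrocyte and skeletal muscle markers, osteoclast markers summed to 3701, 2646 and 1293 FPKM in OE, against 3150, 1028 and 991 FPKM in Ctrl. Tendon and fibrous tissue markers summed to 148, 81.8 and 102 FPKM in OE, against 91.7, 20.7 and 25.7 FPKM in Ctrl, and smooth muscle and pericyte markers to 82.7, 43.7 and 33.7 FPKM in OE, against 56.1, 22.4 and 23.3 FPKM in Ctrl. Their part in the collagen differences was not tested.

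**Figure D2:**
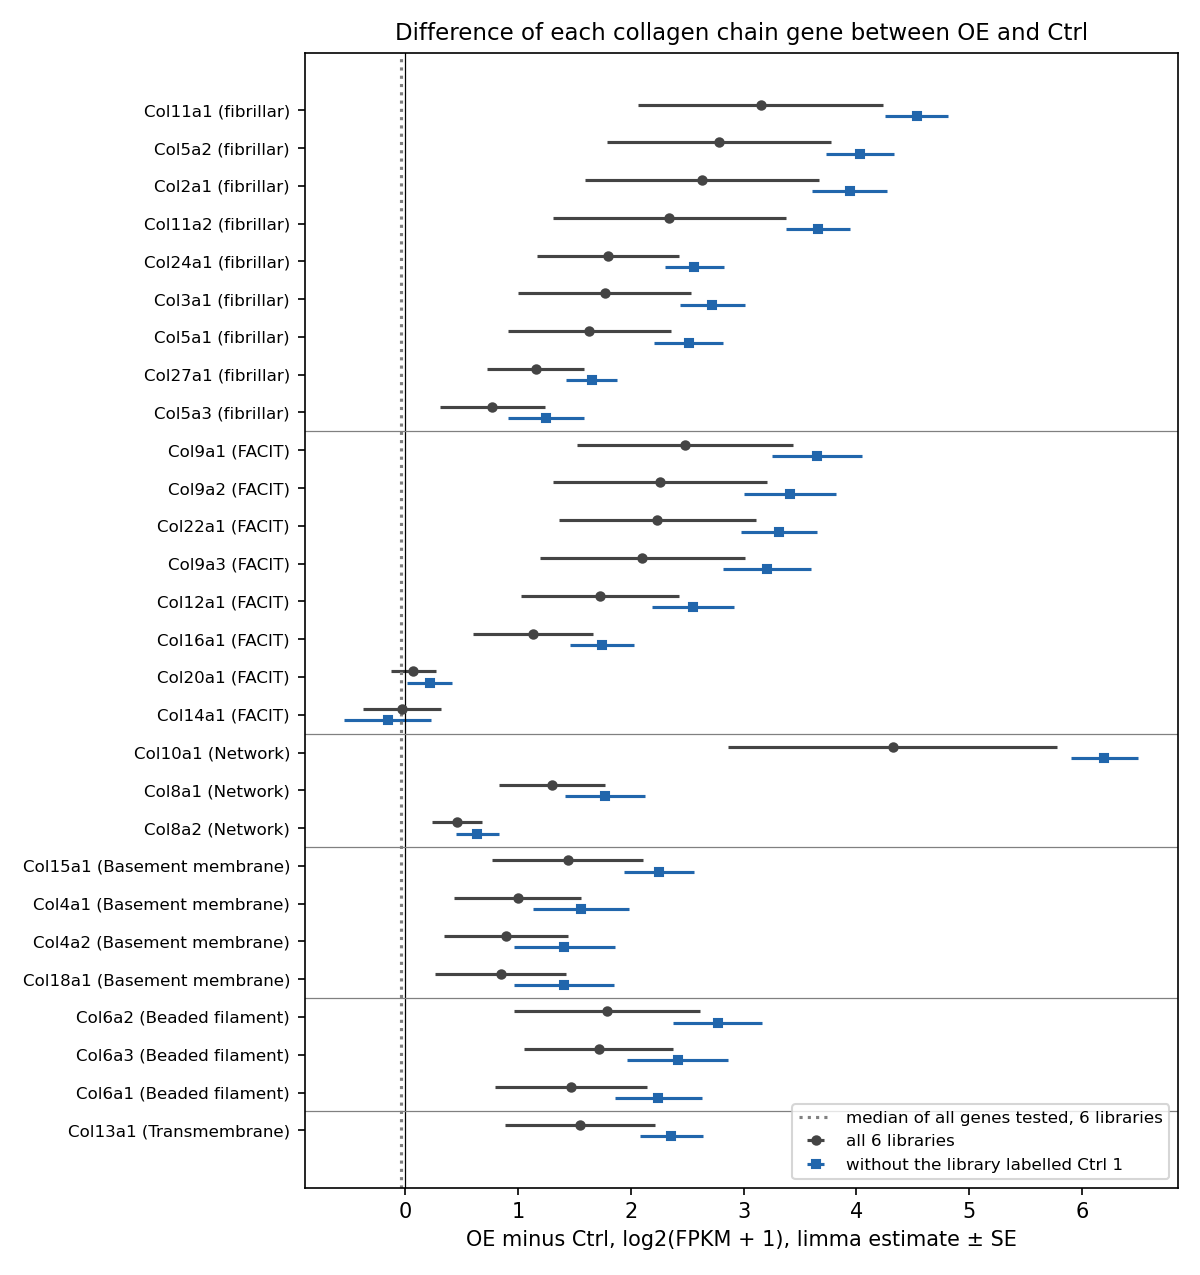
Difference OE minus Ctrl in log2(FPKM + 1) for the 28 chains (limma estimate, bars are SE), with all 6 libraries (circles) and without the library labelled Ctrl 1 (squares). The circles are positive in 27 rows with wide bars, and the squares lie farther right with narrower bars in most rows, up to 6.20 for Col10a1.

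Type I chains were the most abundant members wherever they were estimated. Col1a1 (chromosome 11, 94936224 to 94953042, GRCm38, plus strand) stood at 3504 and 3278 FPKM in OE 2 and OE 3, against 179 and 276 FPKM in Ctrl 2 and Ctrl 3, while OE 1 and the library labelled Ctrl 1 list it at 0. Col1a2 (chromosome 6, 4504814 to 4541544, plus strand) stood at 4029 and 3236 FPKM in OE 2 and OE 3, against 196 and 241 FPKM in Ctrl 2 and Ctrl 3, with a listed 0 in the same other libraries. OE 1 and the library labelled Ctrl 1 each listed 2 genes at 0 that reached 100 FPKM elsewhere, and these were Col1a1 and Col1a2, while the other 4 libraries listed 0 such genes. The ratio of Col1a1 to Col1a2 was 0.870 and 1.013 in OE 2 and OE 3, against 0.911 and 1.15 in Ctrl 2 and Ctrl 3.

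Type III and type V chains regulate the width of type I fibrils and are widespread in soft connective tissue. Col3a1 (chromosome 1, 45311538 to 45349706, plus strand) stood at 140.2, 74.0 and 84.1 FPKM in OE, against 106 in the library labelled Ctrl 1, with 13.7 and 13.5 in Ctrl 2 and Ctrl 3. Col5a1 stood at 84.9, 49.0 and 41.4 FPKM in OE, against 61.0 in the library labelled Ctrl 1, with 8.86 and 9.03 in Ctrl 2 and Ctrl 3. Both overlapped between groups through that library, with Ctrl 2 and Ctrl 3 low. Col5a2, which lies 24614 bases from Col3a1 on the opposite strand, stood at 197, 118 and 104 FPKM in OE, against 112, 6.43 and 8.21 in Ctrl. It differed more than its neighbour, by 2.78 (SE 0.99) in log2(FPKM + 1) for Col5a2 and 1.77 (SE 0.77) for Col3a1, both at a limma adjusted p = 0.554. Without the library labelled Ctrl 1 the differences were 4.03 (SE 0.30, limma adjusted p = 0.00289) for Col5a2, 2.72 (SE 0.29, adjusted p = 0.00737) for Col3a1 and 2.51 (SE 0.31, adjusted p = 0.0108) for Col5a1. Col5a3, a minor chain of type V, was the only fibrillar chain of the 9 not called in that comparison (1.25, SE 0.34, limma adjusted p = 0.113), and it was called with OE 3 also left out, when all 9 were.

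Type II and type XI are the fibrillar collagens of cartilage, and type XI chains are also made elsewhere, including bone. Col2a1 (chromosome 15, 97975602 to 98004695, minus strand) stood at 177, 263 and 134 FPKM in OE, against 183 in the library labelled Ctrl 1, with 8.82 and 13.8 in Ctrl 2 and Ctrl 3. Col11a1 stood at 175, 119 and 96.9 FPKM in OE, against 97.0, 3.94 and 5.13 in Ctrl, so the library labelled Ctrl 1 lay just above OE 3. Col11a2 stood at 267, 189 and 142 FPKM in OE, against 236, 14.6 and 14.1 in Ctrl. In the main comparison Col11a1 had the largest fibrillar difference, 3.15 (SE 1.08, limma adjusted p = 0.554), and without the library labelled Ctrl 1 it was 4.54 (SE 0.28, limma adjusted p = 0.00289), a 28.8-fold ratio of mean FPKM. Type XXIV, a fibrillar collagen found in developing bone, and type XXVII, found mainly in cartilage, were lower in level. Col24a1 stood at 9.52, 5.78 and 5.17 FPKM in OE, against 5.35, 0.221 and 0.358 in Ctrl, and Col27a1 at 6.37, 4.87 and 3.83 FPKM in OE, against 4.31, 0.742 and 1.05 in Ctrl. Again the library labelled Ctrl 1 lay within the OE range for both, and both passed without it (2.56, SE 0.26, limma adjusted p = 0.00653 for Col24a1, and 1.65, SE 0.22, adjusted p = 0.0139 for Col27a1). With no filter Col27a1 did not pass (limma adjusted p = 0.0570).

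FACIT chains split into members that followed the fibrils and members that did not. Of the type IX chains Col9a1, Col9a2 and Col9a3, which coat cartilage fibrils, Col9a2 and Col9a3 stood close to one another in each library. Col9a1 was lower beside them in Ctrl 2 and Ctrl 3. Col9a1 stood at 15.8, 28.4 and 9.67 FPKM in OE, against 14.7 in the library labelled Ctrl 1, with 0.313 and 0.466 in Ctrl 2 and Ctrl 3. Col9a2 stood at 18.9, 31.1 and 10.4 FPKM in OE, against 19.1, 0.789 and 0.855 in Ctrl, and Col9a3 at 15.4, 24.8 and 8.63 FPKM in OE, against 16.3, 0.729 and 0.725 in Ctrl. OE 2 was the highest library for all 3 chains and Ctrl 2 and Ctrl 3 were below 1 FPKM. Type XII, found in tendon, periosteum and other dense tissue, and type XXII, found at junctions of muscle with tendon, showed the same low libraries. Col12a1 stood at 74.2, 40.6 and 30.1 FPKM in OE, against 42.2, 6.24 and 7.53 in Ctrl, and Col22a1 at 39.98, 22.8 and 17.8 FPKM in OE, against 24.0, 1.96 and 1.37 in Ctrl. Without the library labelled Ctrl 1, limma called these 5 chains and Col16a1 higher, 6 of 8 FACIT members tested, with differences from 1.74 for Col16a1 to 3.65 for Col9a1. With no filter 3 passed, Col9a1, Col9a2 and Col22a1, while Col9a3 (limma adjusted p = 0.0509), Col12a1 (adjusted p = 0.0644) and Col16a1 did not.

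Col20a1 and Col14a1 were the FACIT members that kept to other patterns. Col20a1 (chromosome 2, 180986535 to 181018363, plus strand) stood at 28.9, 24.5 and 19.5 FPKM in OE, against 28.1, 20.7 and 20.4 in Ctrl, with the groups overlapping and no library low. Its difference was 0.07 (SE 0.20, limma adjusted p = 0.912) with all libraries, and 0.22 (SE 0.20, limma adjusted p = 0.647) without the library labelled Ctrl 1. Col14a1, whose product binds fibrils in skin and tendon, stood at 1.40, 1.07 and 4.02 FPKM in OE, against 1.49, 2.18 and 2.33 in Ctrl. It was highest in OE 3 and otherwise higher in Ctrl 2 and Ctrl 3 than in OE 1, OE 2 or the library labelled Ctrl 1, with a difference of -0.03 (SE 0.35, limma adjusted p = 0.982). OE 3 was also the highest library for 3 of 3 marrow stroma markers (Cxcl12, Lepr and Kitl), against 16.4% of all genes tested. The same held for 3 of 7 tendon and fibrous, 3 of 7 skeletal muscle and 2 of 3 adipocyte markers tested. It also held for the erythroid and B-cell markers given above. The part of any of these in the Col14a1 value was not tested. Col20a1 shares exon bases with an annotated sense-overlapping transcript that has no row of its own.

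Network chains held the member that differed most. Col10a1 (chromosome 10, 34389981 to 34397085, plus strand), the type X collagen of hypertrophic cartilage, stood at 91.2, 138 and 68.6 FPKM in OE, against 64.1 in the library labelled Ctrl 1, with 0.406 and 0.218 in Ctrl 2 and Ctrl 3. The groups did not overlap, by a narrow margin between OE 3 and the library labelled Ctrl 1 (exact two-sided permutation p = 0.1, the smallest 3 against 3 can give). Its difference was 4.32 (SE 1.46, limma adjusted p = 0.554), and 6.20 (SE 0.30, limma adjusted p = 0.00156) without that library, a 318-fold ratio of mean FPKM. Its exons overlap those of Nt5dc1 on the opposite strand, which stood at 9.79, 10.8 and 8.79 FPKM in OE, against 8.78, 14.95 and 14.99 in Ctrl. The type VIII chains, known from vessel walls and the cornea, differed less. Col8a1 stood at 22.6, 12.9 and 8.83 FPKM in OE, against 10.46, 3.09 and 3.61 in Ctrl, and Col8a2 at 1.30, 0.929 and 1.27 FPKM in OE, against 1.02, 0.352 and 0.430 in Ctrl. Col8a1 passed without the library labelled Ctrl 1 (1.77, SE 0.36, limma adjusted p = 0.0467) and Col8a2 did not (0.64, SE 0.19, adjusted p = 0.145). With no filter Col10a1 alone of the class passed, with a limma adjusted p = 0.0171 for Col10a1 and 0.117 for Col8a1.

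Basement membrane chains had the smallest median difference of the 5 classes with at least 3 tested members, 0.94 with all libraries and 1.48 without the library labelled Ctrl 1, but classes were not tested against each other. Col4a1 (chromosome 8, 11198423 to 11312826, minus strand), which with Col4a2 forms the common type IV network under endothelium, stood at 62.5, 29.96 and 21.1 FPKM in OE, against 37.4 in the library labelled Ctrl 1, with 10.1 and 11.9 in Ctrl 2 and Ctrl 3. Col4a2 (chromosome 8, 11312805 to 11449287, plus strand) stood at 42.9, 19.5 and 13.4 FPKM in OE, against 24.9, 7.09 and 8.65 in Ctrl. OE 1 was highest for both, and the groups overlapped. Neither passed without the library labelled Ctrl 1 (1.56, SE 0.43, limma adjusted p = 0.116 for Col4a1, and 1.41, SE 0.45, adjusted p = 0.168 for Col4a2), while both did with OE 3 also left out, when all 4 chains of the class were called. Col15a1, a multiplexin of the zone below basement membranes, stood at 16.0, 10.4 and 7.06 FPKM in OE, against 12.1, 1.496 and 1.39 in Ctrl, and passed without the library labelled Ctrl 1 (2.25, SE 0.31, limma adjusted p = 0.0143), though not with no filter (adjusted p = 0.0644). Col18a1, the precursor of endostatin, ran from 2.72 to 10.04 FPKM in OE and from 1.04 to 6.30 in Ctrl and did not pass there (1.41, SE 0.44, adjusted p = 0.163). The other type IV genes, Col4a3 to Col4a6, known from kidney and other specialised membranes, reached at most 0.204 FPKM in any library. Endothelial markers, 6 of 6 tested, summed to 121, 94.4 and 79.0 FPKM in OE, against 110.5, 76.2 and 70.6 in Ctrl, with no marker at 0.

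Beaded filament chains of type VI followed the fibrillar chains. Col6a1 stood at 79.7, 42.1 and 30.4 FPKM in OE, against 49.5 in the library labelled Ctrl 1, with 8.72 and 9.47 in Ctrl 2 and Ctrl 3. Col6a2, its neighbour on chromosome 10 on the same strand, stood at 77.6, 41.1 and 28.7 FPKM in OE, against 51.0, 5.52 and 6.03 in Ctrl. Col6a3, the long chain that completes the heterotrimer, stood at 33.1, 11.8 and 12.8 FPKM in OE, against 13.6, 1.82 and 3.13 in Ctrl. In each the library labelled Ctrl 1 lay within the OE range, and all 3 passed without it, with differences of 2.24 (SE 0.38, limma adjusted p = 0.0282), 2.77 (SE 0.39, adjusted p = 0.0158) and 2.42 (SE 0.45, adjusted p = 0.0366) for Col6a1, Col6a2 and Col6a3. With no filter none of the 3 passed limma (adjusted p = 0.0829 for Col6a1, 0.0634 for Col6a2 and 0.102 for Col6a3). Col6a4, Col6a5 and Col6a6, which lie side by side on chromosome 9, were not tested, and among them 1 library alone reached 1 FPKM, Col6a5 in OE 3 at 1.06.

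Transmembrane, anchoring and other chains were mostly near the limit of these libraries. Col13a1, a transmembrane collagen of cell junctions that include the nerve-muscle synapse, was the exception, at 13.6, 7.999 and 6.79 FPKM in OE, against 9.65, 0.935 and 0.990 in Ctrl. Its groups overlapped through the library labelled Ctrl 1, and without it the difference was 2.36 (SE 0.28, limma adjusted p = 0.0102), and adjusted p = 0.0497 with no filter. Col23a1 stood at 1.15, 0.819 and 0.549 FPKM in OE, against 0.652, 0.268 and 0.210 in Ctrl, and Col25a1 at 1.63, 0.496 and 0.735 FPKM in OE, against 0.505, 0.232 and 0.394 in Ctrl. Col7a1, which forms the anchoring fibrils of skin, stood at 0.247, 0.263 and 0.232 FPKM in OE, against 0.294, 0.197 and 0.237 in Ctrl, so no library stood apart. Col26a1 ran from 0.0532 to 0.133 FPKM in OE and from 0.0105 to 0.191 in Ctrl, and Col28a1 from 0.170 to 0.312 in OE and from 0.155 to 0.282 in Ctrl. In all, 14 members were below the filter, and 11 of these stayed under 1 FPKM in every library.

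Chains differed in the library in which they peaked. Of the 28 chains, 22 were highest in OE 1, 5 in OE 2 and 1 in OE 3, where 19.2%, 11.3% and 16.4% of all genes tested were. The 5 chains highest in OE 2 were Col2a1, Col9a1, Col9a2, Col9a3 and Col10a1. Among chondrocyte markers, 8 of 9 were also highest in OE 2, while Chad peaked in the library labelled Ctrl 1, with sums of 148, 228 and 107 FPKM in OE, against 169, 14.7 and 15.04 in Ctrl. Osteoblast markers were highest in OE 1 in 7 of 9 and in OE 2 in the other 2. The type XI chains, which share cartilage fibrils with type II, were highest in OE 1, and the ratio of Col11a1 to Col2a1 was 0.994, 0.453 and 0.724 in OE, against 0.531, 0.446 and 0.372 in Ctrl.

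**Figure D3:**
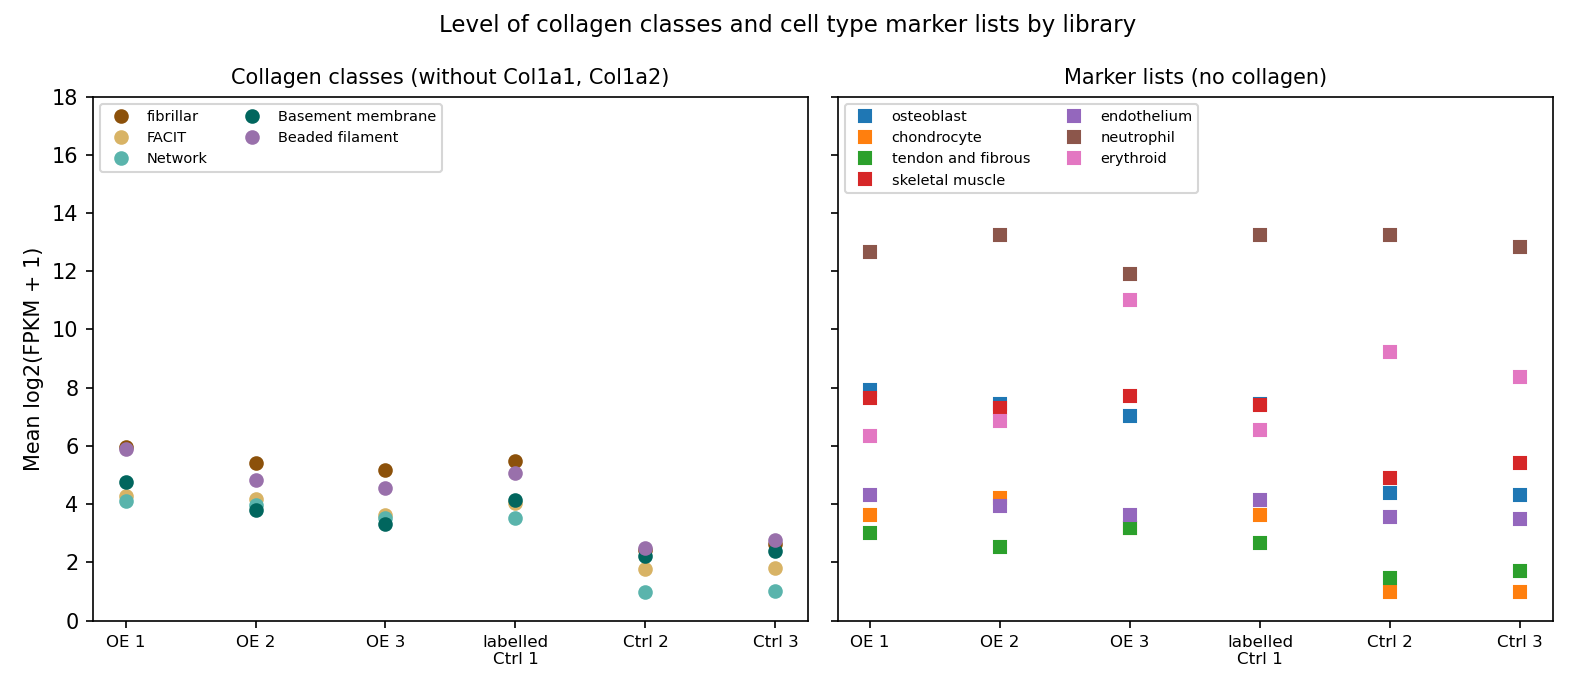
Mean log2(FPKM + 1) of the tested members of 5 collagen classes (left, without Col1a1 and Col1a2) and of 7 non-collagen marker lists (right), 1 point for each library. The 5 classes and the osteoblast, chondrocyte and skeletal muscle lists are lowest in Ctrl 2 and Ctrl 3, while neutrophil markers are lowest and erythroid markers highest in OE 3. The osteoblast point lies behind the skeletal muscle point in the library labelled Ctrl 1.

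The make-up of the family without type I also differed between libraries. Fibrillar chains took 61.6%, 62.2% and 66.3% of that collagen FPKM in OE, against 64.8% in the library labelled Ctrl 1, with 43.3% and 44.2% in Ctrl 2 and Ctrl 3. FACIT chains took 12.1%, 13.6% and 11.5% in OE, against 12.5%, 25.8% and 23.7% in Ctrl, and basement membrane chains 7.62%, 4.83% and 4.79% in OE, against 6.48%, 14.6% and 15.6% in Ctrl. The FACIT share in Ctrl 2 and Ctrl 3 was mostly Col20a1, which made up 1.67%, 1.84% and 2.10% of the total in OE, against 2.25%, 15.3% and 13.5% in Ctrl. Network chains as a class moved the other way, at 6.66%, 11.4% and 8.48% in OE, against 6.05%, 2.84% and 2.81% in Ctrl. Among them only Col10a1 did so, at 5.27%, 10.4% and 7.39% in OE, against 5.13% in the library labelled Ctrl 1. Its share was lowest in Ctrl 2 and Ctrl 3. The shares of Col8a1 and Col8a2 were instead highest in Ctrl 2 and Ctrl 3. Col8a1 took 1.31%, 0.973% and 0.951% in OE, against 0.838%, 2.28% and 2.39% in Ctrl. Beaded filament chains took 11.1%, 7.19% and 7.90% in OE, against 9.20%, 11.9% and 12.4% in Ctrl. These shares sum to the same whole, so a higher share of one class lowers the others.

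**Figure D4:**
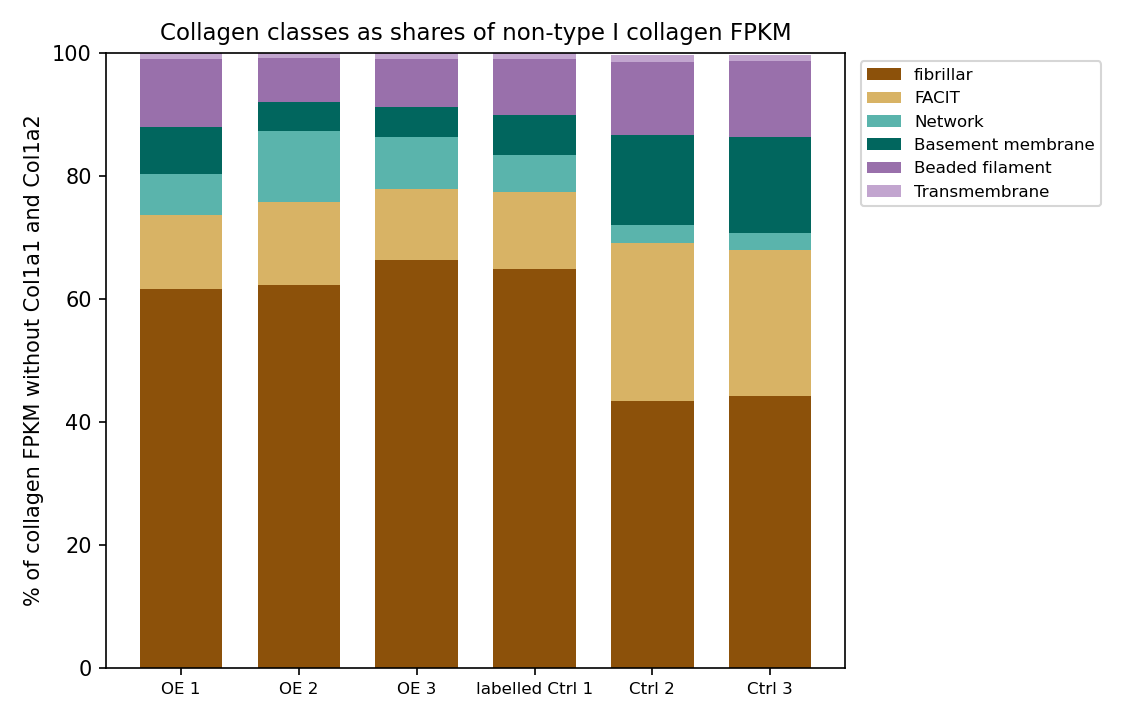
Share of each collagen class in the summed FPKM of all members other than Col1a1 and Col1a2, by library. The bars of OE 1 to 3 and of the library labelled Ctrl 1 are alike, with 61.6% to 66.3% fibrillar, and those of Ctrl 2 and Ctrl 3 have 43.3% and 44.2%; the anchoring fibril and other chains are left out, so the bars end just short of the whole.

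Chains that assemble together kept their ratio in some heterotrimers and not in others. Col4a1 over Col4a2, whose promoter windows overlap as printed, was 1.46, 1.54 and 1.58 in OE, against 1.502, 1.42 and 1.38 in Ctrl, a spread of 1.15-fold over libraries in which each gene varied far more. The start of each gene lies within the other in the annotation, so a few exon bases are shared. Col9a3 over Col9a2, on different chromosomes, was as steady, at 0.816, 0.797 and 0.832 in OE, against 0.854, 0.923 and 0.848 in Ctrl. The third type IX chain was less steady, with Col9a1 over Col9a2 at 0.836, 0.911 and 0.932 in OE, above 0.769, 0.396 and 0.545 in Ctrl. Col6a1 over Col6a2 was 1.03, 1.02 and 1.06 in OE, against 0.970 in the library labelled Ctrl 1, with ratios of 1.58 and 1.57 in Ctrl 2 and Ctrl 3. For type V, Col5a1 over Col5a2 was 0.430, 0.414 and 0.397 in OE, against 0.547 in the library labelled Ctrl 1, with 1.38 and 1.10 in Ctrl 2 and Ctrl 3, so the more abundant chain was Col5a2 in OE and Col5a1 in those 2 libraries. The groups did not overlap for this ratio. Likewise Col11a1 over Col11a2 was 0.658, 0.630 and 0.681 in OE, above 0.411, 0.269 and 0.363 in Ctrl, and Col3a1 over Col5a2 was 0.710, 0.624 and 0.806 in OE, below 0.947, 2.13 and 1.65 in Ctrl. These ratios were described without a test, and 13 were computed, some of which share a chain. For any of them 3 against 3 libraries can give no permutation p below 0.1. The type IX chains were under 1 FPKM in Ctrl 2 and Ctrl 3.

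**Figure D5:**
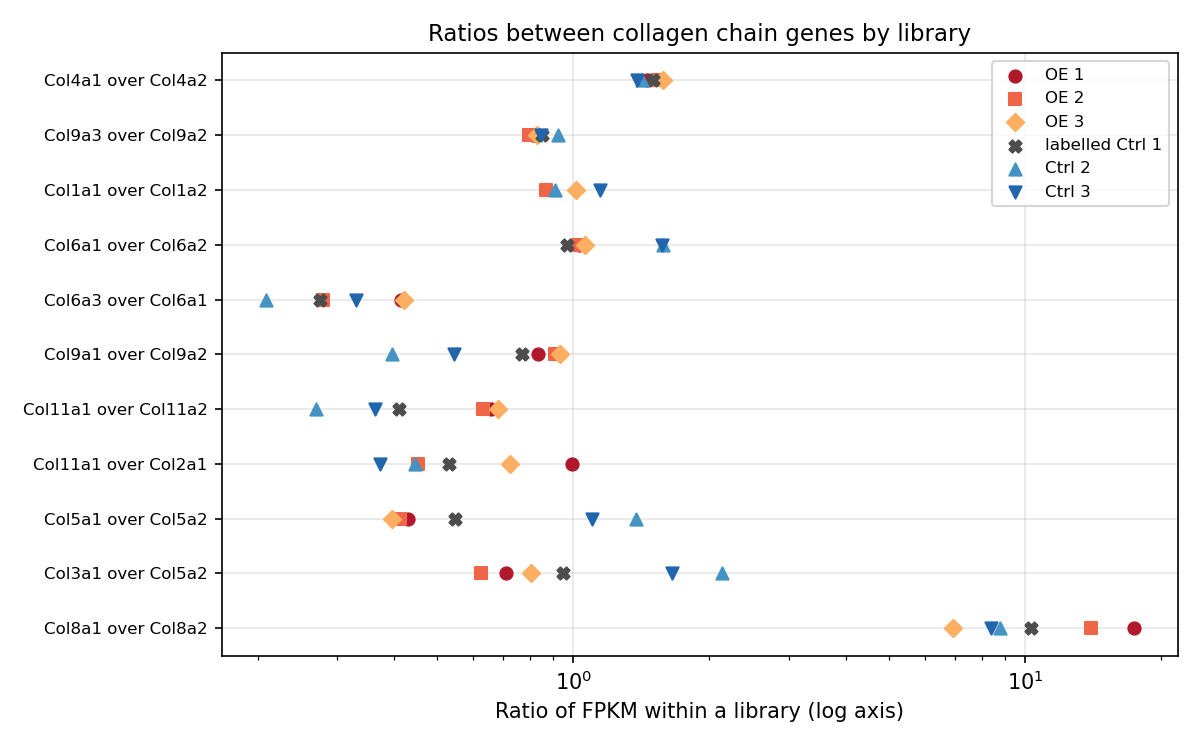
Ratio of FPKM between chain genes within a library (log axis), 1 point for each library. Col4a1 over Col4a2 and Col9a3 over Col9a2 are tight clusters, while Col5a1 over Col5a2 runs from 0.397 in OE 3 to 1.38 in Ctrl 2.

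Other genes of collagen production were described from lists. Of enzymes and chaperones that modify the chains in the endoplasmic reticulum, 17 of 20 were tested, 14 had a positive difference with all libraries, where 43.7% of all genes did, and 0 passed limma. Without the library labelled Ctrl 1, 10 were higher and 0 lower, with a median of 1.504, where 4.25% and 0.649% of all genes were called. With no filter 7 of 19 were higher and 0 lower, where 0.941% and 0.279% of all genes were. Serpinh1, the collagen chaperone, stood at 461, 331 and 193 FPKM in OE, against 349 in the library labelled Ctrl 1, with 21.5 and 21.8 in Ctrl 2 and Ctrl 3. For procollagen processing and crosslinking, 11 of 14 were tested and all 11 were positive, with 0 passing and a median of 1.74. Without that library 10 were higher and 0 lower, against 4.25% and 0.649% of all genes. With no filter 4 of 14 were higher, against 0.941% of all genes. Pcolce, the enhancer of C-propeptide removal, stood at 146, 114 and 73.9 FPKM in OE, against 133, 13.1 and 11.4 in Ctrl. The Lox product, which starts crosslinks, belongs to the same list, and Lox stood at 108, 49.0 and 35.4 FPKM in OE, against 43.2, 3.69 and 4.89 in Ctrl. Collagen receptors had 11 of 11 tested, 8 positive and 0 passing. Without the library labelled Ctrl 1, 3 were higher and 0 lower, against 4.25% and 0.649% of all genes. With no filter there were 0 of either, against 0.941% and 0.279%. With OE 3 also left out, 4 were higher and 2 lower, Adgrg1 and Gp6, where 7.92% and 3.48% of all genes were. Ddr2, a receptor kinase for fibrillar collagen, stood at 16.4, 6.86 and 8.16 FPKM in OE, against 5.83, 1.20 and 1.77 in Ctrl. In the degradation list 7 of 8 were tested, 5 were positive and 0 passed. With no filter and the library labelled Ctrl 1 left out, 1 was higher, against 0.941% of all genes. With the filter and without that library 3 were higher and 0 lower, against 4.25% and 0.649%. The 3 called were Mmp2, Mmp14 and Ctsk. Mmp13, a collagenase, stood at 396, 253 and 132 FPKM in OE, against 243, 57.5 and 58.8 in Ctrl. It was not called without the library labelled Ctrl 1 (limma adjusted p = 0.0622). Mmp8 and Mmp9 had negative differences with all libraries (-0.45 and -0.11). Mmp8 stood at 473, 468 and 318 FPKM in OE, against 474, 574 and 660 in Ctrl. The library labelled Ctrl 1 was no lower than the lowest of OE in 15 of 17, 10 of 11, 7 of 11 and 6 of 7 genes in the order given, against 78.8% of all genes.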

How the data were processed

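RNA of mouse femurs was sequenced as paired ends, per the labels' protocols. Each deposited file lists 1 FPKM value for a gene, per the file headers; counts were not used. TopHat2, Cufflinks and DESeq with mm10 are named in the submitters' processing notes; their roles, versions and the strand setting are not stated there. FPKM is scaled within a library, so abundant genes lower the others, and an exact 0 can be a failed estimate. Ensembl identifiers were matched to symbols of GENCODE M21 on GRCm38, which mm10 names, and promoters came from RefSeq on GRCm38.p6.

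Differences are limma 3.58.1 (R 4.3.3) estimates on log2(FPKM + 1), OE minus Ctrl, with an intensity trend and equal weights, for the 12177 genes that reached 1 FPKM in 3 or more libraries. The Benjamini-Hochberg adjustment ran over all of them (threshold 0.05). The log2(FPKM + 1) scale understates changes of low genes. The fit was tested on simulated data with known changes. That simulation drew independent noise for each gene, with no shift shared across a library. It therefore does not cover a library that differs in many genes at once. Single values used exact two-sided permutation tests. Python 3.11.15, pandas 2.3.3, scipy 1.17.1 and matplotlib 3.10.9 were used.

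Members, classes and lists were chosen with earlier results of these data known. Library values are given for members averaging at least 10 FPKM, the 3 highest of each class, and those with an unadjusted p under 0.05; Col14a1, Col16a1, Col18a1, Col5a3, the low type IV and VI genes and the pathway genes were named outside that rule, after their values were seen. Alternatives were trimmed-mean scaling, a pseudocount of 0.1, no filter, a filter of 5 FPKM, no trend, the replicate number as a block, array weights, and leaving out each library or the libraries labelled Ctrl 1 and OE 3; no filter with the library labelled Ctrl 1 left out was added after seeing the data.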

Additional observations from a re-analysis of the deposited data

How the results depend on the processing

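The count of chains called depended on the library labelled Ctrl 1. No chain was called with trimmed-mean scaling, a pseudocount of 0.1, no filter, a filter of 5 FPKM, no trend or the replicate block, and leaving out 1 library gave 0 to 21 called, the 21 without the library labelled Ctrl 1. Array weights (0.414 for that library, 0.421 for OE 3 and 5.82 for Ctrl 2) called 25 higher and 0 lower. Leaving out both the library labelled Ctrl 1 and OE 3 also called 25 higher and 0 lower. The weights count those same libraries least, and the cause of these counts was not tested. Leaving out the library labelled Ctrl 1 with no filter, chosen after seeing the data, called 12 of the 42 chains higher (0.941% of all genes). At an unadjusted p it gave 30 higher (11.3% of all genes). At an unadjusted p the 11 higher chains became 26 with the replicate block (9.61% of all genes higher), with array weights (16.1%) and without both libraries (13.8%). On leaving out 1 library they became 0 to 26 (0.624% to 11.6% of all genes). Without both libraries 1 chain, Col14a1, was lower at an unadjusted p (-0.55).

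The median over chains ranged from 1.21 to 2.46 on leaving out 1 library was 2.58 with array weights and 2.66 without both libraries, and was 1.06 with no filter, which tests all 42 chains other than Col1a1 and Col1a2. By class, leaving out 1 library gave 1.37 to 2.72 for fibrillar, 1.40 to 2.88 for FACIT, 0.96 to 1.77 for network, 0.50 to 1.48 for basement membrane and 1.23 to 2.42 for beaded filament chains. The FACIT median, 1.92 with all libraries, was 2.93 with array weights and 3.20 without both libraries. With no filter, array weights and without both libraries the basement membrane median was 0.49, 1.75 and 1.83 and the beaded filament median 0.97, 2.72 and 2.61, and with array weights and without both libraries the network median was 1.97 and 2.07 and the fibrillar median 2.68 and 2.81. The network median of 1.30 became 2.81 at a filter of 5 FPKM, which drops Col8a2. On leaving out 1 library, Col20a1 ranged from -0.058 without OE 1 to 0.216 without the library labelled Ctrl 1 and also changed sign without Ctrl 3 (-0.0065); it was 0.28 with array weights and 0.36 without both libraries.

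The titles give both groups numbers 1 to 3. Deviations of same-numbered libraries from their group means correlated at 0.443, 0.0866 and 0.312. OE 1 and OE 2 each correlated best with the library labelled Ctrl 1 (0.443 and 0.143), and OE 3 with Ctrl 2 (0.416). These values do not settle whether the numbers pair libraries. The main fit used no pairing, and the replicate block is given above. Absolute depth is unknown, which limits members under 1 FPKM.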
